A study of Canis lupus familiaris with 12 samples.

Results

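The genes described here are those for the proteins of the cytosolic ribosome, chosen by symbol alone: names formed from RPL or RPS and a number, with the stalk genes RPLP0, RPLP1 and RPLP2. The rule uses no measured value, though it was set with earlier results of these data known. The rule gave 57 of the 15115 genes with a symbol on the array, 21 of the small subunit and 36 of the large subunit, read by 116 of the 29254 probe sets that carry 1 symbol. It would also take RPSA, which was not among the genes with a symbol of their own. Each gene was represented by its brightest probe set, the one with the highest mean over all arrays.

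The values come from C2, a dog mast cell tumour line in which a tandem duplication keeps the KIT receptor switched on. Masitinib inhibits the tyrosine kinases KIT, platelet-derived growth factor receptor and Src family members. Cultures of C2 cells were sampled untreated, before the drug was added (0 h), and after 12, 24 and 72 h with 100 nM masitinib, with 3 flasks and 3 Affymetrix Canine Genome 2.0 arrays for each time and 12 arrays in all. All flasks held the same cell line, so p-values measure the spread between these flasks only, and with no untreated culture at a later time analysed here, the drug and the time in culture cannot be told apart.

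A ribosome is built from a small subunit, which reads the messenger RNA, and a large subunit, which joins the amino acids. Each subunit is a scaffold of ribosomal RNA with many ribosomal proteins, made in near equal amounts and assembled in the nucleolus with the help of assembly factors. Transcripts of ribosomal proteins are among the most abundant of a growing cell. They begin with a run of pyrimidines, the TOP motif, through which mTOR signalling, one of the routes downstream of KIT and other growth factor receptors, controls mainly their translation and less their amount. A few have paralogs, closely related genes whose product can stand in for the usual protein or serves another step.

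On every array these transcripts sat near the top of the scale. The mean level of the 57 genes had a median of 13.76 on the log2 scale, against 5.94 over all tested probe sets, and 45 genes were within the brightest 1% of probe sets. The highest were RPL9 with 14.82, RPS26 with 14.62 and RPS27A, a fusion of ubiquitin and a small subunit protein, with 14.43. RPL37A with 4.30, RPL10L with 5.97 and RPL3L with 6.12 were the lowest, and RPL37A alone lay below the median probe set. RPL3L is a paralog of muscle and RPL10L one of testis. A probe set's level also depends on how well its probes bind, so the order of genes is not read from these levels. The brightest spot of each array was at 14.85 to 14.88.

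Through 72 h with masitinib the brightest probe sets of the group changed little. The median level of the 57 genes on an array was 13.79 ± 0.02 at 0 h, 13.82 ± 0.04 at 12 h, 13.80 ± 0.01 at 24 h and 13.74 ± 0.03 at 72 h (mean ± SD of log2 values, n = 3). Against 0 h the median change of a gene was 0.05, 0.07 and -0.05 (log2) at 12, 24 and 72 h, beside 0.01, 0.03 and 0.02 over all genes. The size of the change, whatever its direction, had a median of 0.0607, 0.109 and 0.0967 (log2), beside 0.143, 0.188 and 0.199 over all genes. It was under 0.2 in 52, 45 and 45 of the 57 genes. Most of these probe sets lie close to the top of the scale, and whether changes are compressed there was not tested. The other 59 probe sets of the same genes, with a median level of 8.57, had a median size of 0.130, 0.175 and 0.135, beside 0.131, 0.168 and 0.179 over all tested probe sets.

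A gene was called changed at an adjusted p under 0.001 from limma, with Benjamini-Hochberg adjustment over all 42924 tested probe sets, and a change of more than 1.5-fold (0.585 on the log2 scale). By that rule none of the 57 genes was higher at any of the 3 times against 0 h, and 1, 2 and 2 genes were lower at 12, 24 and 72 h. Over all genes with a symbol, 4.26, 8.01 and 8.73% were called higher and 6.30, 10.0 and 11.0% lower at these times. The called genes were RPL22L1 at 12 h, RPL26 and RPL7L1 at 24 h, and RPL36 and RPL7L1 at 72 h, all of the large subunit, and 2 of these 4 genes are paralogs. Just inside the fold limit was RPL36 at 72 h with -0.62, and just outside it were RPL22L1 at 24 h and RPL7L1 at 12 h with -0.58 each and RPL26 at 72 h with -0.58. RPL7L1 at 12 h also missed the limit of 0.001 (limma adjusted p = 0.00394).

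**Figure D1:**
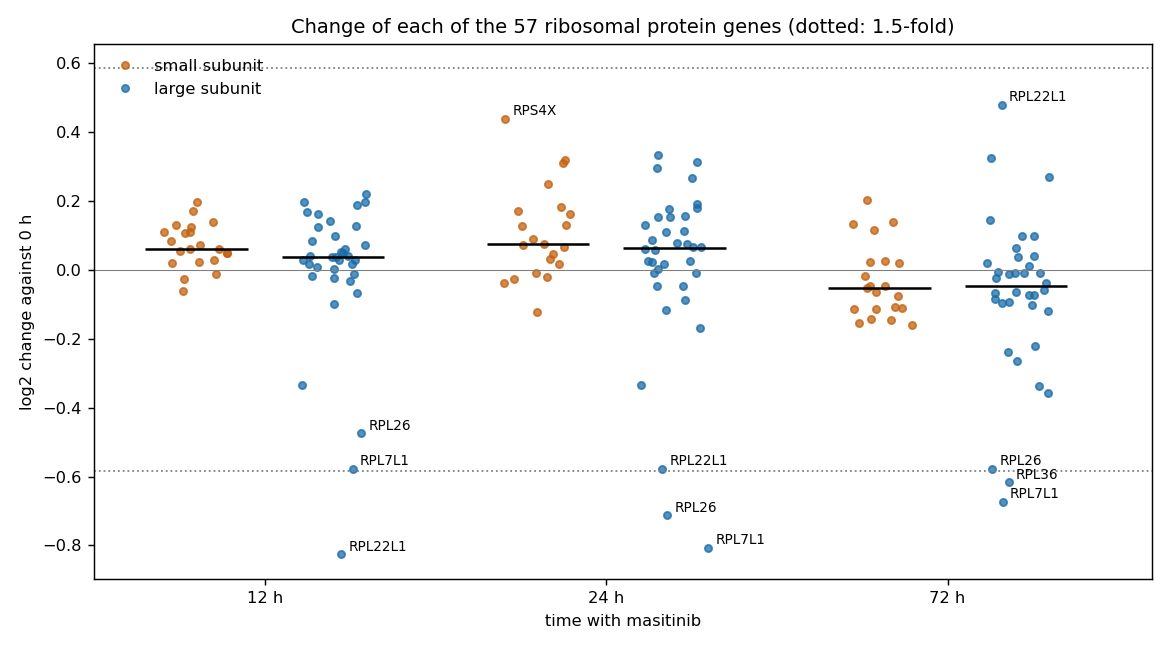
Log2 change against 0 h (vertical axis) of each of the 57 genes at 12, 24 and 72 h with masitinib, split into small (orange) and large (blue) subunit. Bars are medians and dotted lines mark 1.5-fold. Most genes lay between -0.2 and 0.2, and no gene passed the upper line.

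These values are relative, because the authors' quantile normalization gives the probes of each array the same distribution. The summarised probe sets are close to that but not equal, with array medians of 5.89 to 5.95. The array carries 42 probe sets for bacterial poly-A control transcripts, whose addition is not described in the sources used here. Their mean was higher than at 0 h by 0.24, 0.51 and 0.39 at 12, 24 and 72 h. Without the 6 trp probe sets, which read at most 4.24 on any array, it was higher by 0.29, 0.60 and 0.47. All 42 were kept for the scaling given next. With the arrays scaled to equal poly-A controls, all probe sets had medians of -0.23, -0.48 and -0.36, and the ribosomal protein genes -0.19, -0.45 and -0.45, so that on that scale each of the 57 genes was below 0 at 12 and 24 h, and all but RPL22L1 at 72 h. Set against all probe sets, the ribosomal protein genes were at 0.04, 0.03 and -0.08 on the deposited values. Scaling to poly-A controls or to equal array medians adds the same shift to every probe set of an array, so it cannot change these differences. With cyclic loess, which can, they were 0.04, 0.09 and 0.02, so that the sign turned at 72 h. Whether the amount of RNA per cell changed was not tested.

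**Figure D2:**
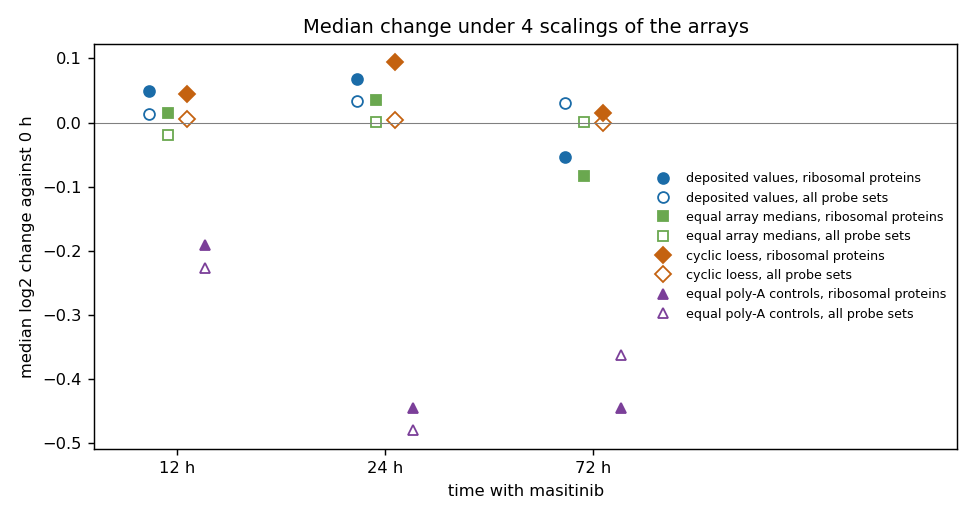
Median log2 change against 0 h (vertical axis) at 12, 24 and 72 h of the 57 ribosomal protein genes (filled) and of all tested probe sets (open) under 4 ways to scale the arrays. Poly-A control scaling moved the filled and open symbols to between -0.48 and -0.19. The gap between them is the same by construction in all settings but cyclic loess. At 72 h the filled symbol lay below the open one except with cyclic loess.

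RPL22L1 had the most marked course of the 57. It is the paralog of RPL22, a large subunit protein, and in mice the Rpl22 protein is known to hold down the Rpl22l1 transcript. Its levels were 9.88, 9.78 and 9.76 at 0 h, 9.06, 8.89 and 8.98 at 12 h, 9.28, 9.18 and 9.22 at 24 h, and 10.31, 10.22 and 10.32 (log2) at 72 h. The arrays of each time stood apart from those of every other time, with those of 12 h lowest and those of 72 h highest. Against 0 h RPL22L1 was 1.77-fold lower at 12 h (log2 change -0.83, SE 0.06, limma adjusted p = 7.84e-07), lower at 24 h (-0.58, adjusted p = 9.42e-06) and higher at 72 h (0.48, adjusted p = 4.7e-05). It was 2.08-fold higher at 72 h than at 24 h (1.06, adjusted p = 4.3e-07). With poly-A control scaling the change of RPL22L1 at 72 h against 0 h was 0.09 (adjusted p = 0.537).

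RPL22 itself did not pass the test at any time against 0 h. Its levels were 7.00, 7.31 and 7.15 at 0 h, 7.35, 7.20 and 7.41 at 12 h, 7.31, 7.23 and 7.24 at 24 h, and 7.00, 6.88 and 6.90 at 72 h. The arrays of 0 h overlapped those of each later time. Its changes of 0.17, 0.11 and -0.22 (SE 0.08, adjusted p = 0.176, 0.358 and 0.051) were each of the opposite sign to those of RPL22L1. At 72 h against 24 h this probe set of RPL22 was lower (-0.33, adjusted p = 0.014), while RPL22L1 was higher. A second probe set of RPL22, with a mean level of 6.95 against 7.16, did not show this course: it had 0.13, 0.15 and 0.04 against 0 h, the last of the same sign as RPL22L1, and -0.11 at 72 h against 24 h, none of which passed (adjusted p = 0.186, 0.112, 0.686 and 0.352).

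RPL7L1 was lower at every time. It is a relative of RPL7 whose yeast counterpart, Rlp7, is an assembly factor of the large subunit and not a part of the finished ribosome. Its levels were 10.31, 10.25 and 9.98 at 0 h, 9.65, 9.51 and 9.65 at 12 h, 9.22, 9.44 and 9.47 at 24 h, and 9.59, 9.73 and 9.21 at 72 h. Every treated array was below every array of 0 h. The changes were -0.58, -0.81 and -0.67 (SE 0.13, limma adjusted p = 0.00394, 0.000211 and 0.000838), and that of 24 h equals a 1.75-fold lower level. RPL7L1 had the largest SE of the members after RPL3L. Its call at 24 h was lost without 0 h replicate 1 (-0.74, adjusted p = 0.00136), 0 h replicate 2 (-0.77, adjusted p = 0.00142) or 24 h replicate 1 (-0.73, adjusted p = 0.00149), and its call at 72 h in 9 of the 12 fits that each left out 1 array, with adjusted p between 0.00131 and 0.00486 and changes between -0.71 and -0.53. A separate, dimmer probe set of RPL7L1 gave -0.68, -0.86 and -0.74. RPL7 had changes of 0.03, 0.08 and 0.01 and did not pass at any time (adjusted p = 0.764, 0.305 and 0.887).

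RPL26 and RPL26L1 were lower together. RPL26 sits near the exit of the peptide tunnel and is known to bind the transcript of p53, and RPL26L1 is its near-identical paralog. RPL26 had levels of 10.73, 10.74 and 10.78 at 0 h, 10.34, 10.33 and 10.16 at 12 h, 10.00, 10.17 and 9.95 at 24 h, and 10.20, 10.18 and 10.15 at 72 h. RPL26L1 had 10.87, 10.91 and 10.90 at 0 h, 10.56, 10.57 and 10.55 at 12 h, 10.60, 10.58 and 10.50 at 24 h, and 10.50, 10.47 and 10.63 at 72 h. In both genes all 9 treated arrays lay below the 3 arrays of 0 h. RPL26 fell by 0.47, 0.71 and 0.58 (SE 0.07, limma adjusted p = 0.000216, 3.47e-06 and 2.17e-05) and RPL26L1 by 0.34, 0.33 and 0.36 (SE 0.06, adjusted p = 0.000758, 0.000529 and 0.000276). RPL26L1 stayed under the 1.5-fold limit, and whether probes of one gene also bind the transcript of the other was not tested. A dimmer probe set of RPL26L1 had -0.21, -0.26 and -0.40 and passed 0.05 at 24 and 72 h but not at 12 h (adjusted p = 0.0778). On their brightest probe sets RPL26, RPL26L1 and RPL7L1 were the 3 genes lower at every time at an adjusted p under 0.05.

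The other paralogs did not pass on their brightest probe sets. RPS27L, a p53-induced relative of RPS27, had changes of -0.06, -0.12 and -0.02 at 12, 24 and 72 h (adjusted p = 0.464, 0.0789 and 0.833). Its second probe set, nearly as bright with a mean level of 13.41 against 13.57, had 0.08, 0.07 and 0.19, and passed 0.05 upward at 72 h (adjusted p = 0.0172). Its partner RPS27 had 0.11, 0.16 and 0.13, of which that of 24 h passed an adjusted p of 0.05 (0.0223). RPL10L had 0.22, 0.16 and -0.06 and RPL3L -0.10, -0.17 and -0.34, and neither passed at any time (adjusted p between 0.0727 and 0.692). The dimmest of the 3 probe sets of RPL3L, at a mean level of 3.27, was lower at 72 h (-0.20, adjusted p = 0.0354). RPL10, the partner of RPL10L and a protein added late to the large subunit, was higher at 12 h (0.16, adjusted p = 0.0333) and at 24 h (0.18, adjusted p = 0.0145), with 0.04 at 72 h.

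RPL36, a large subunit protein, changed late. Its levels were 13.41, 13.36 and 13.33 at 0 h, 13.37, 13.40 and 13.35 at 12 h, 13.28, 13.26 and 13.30 at 24 h, and 12.79, 12.60 and 12.86 at 72 h. The arrays of 0 h and 12 h overlapped, and the 3 of 72 h were below all others. The change at 72 h was -0.62 (SE 0.07, limma adjusted p = 7.73e-06), a 1.53-fold lower level. Without 72 h replicate 2 it was -0.54 (adjusted p = 1.81e-05), and with cyclic loess scaling -0.55 (adjusted p = 1.34e-05), both under the fold limit.

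**Figure D3:**
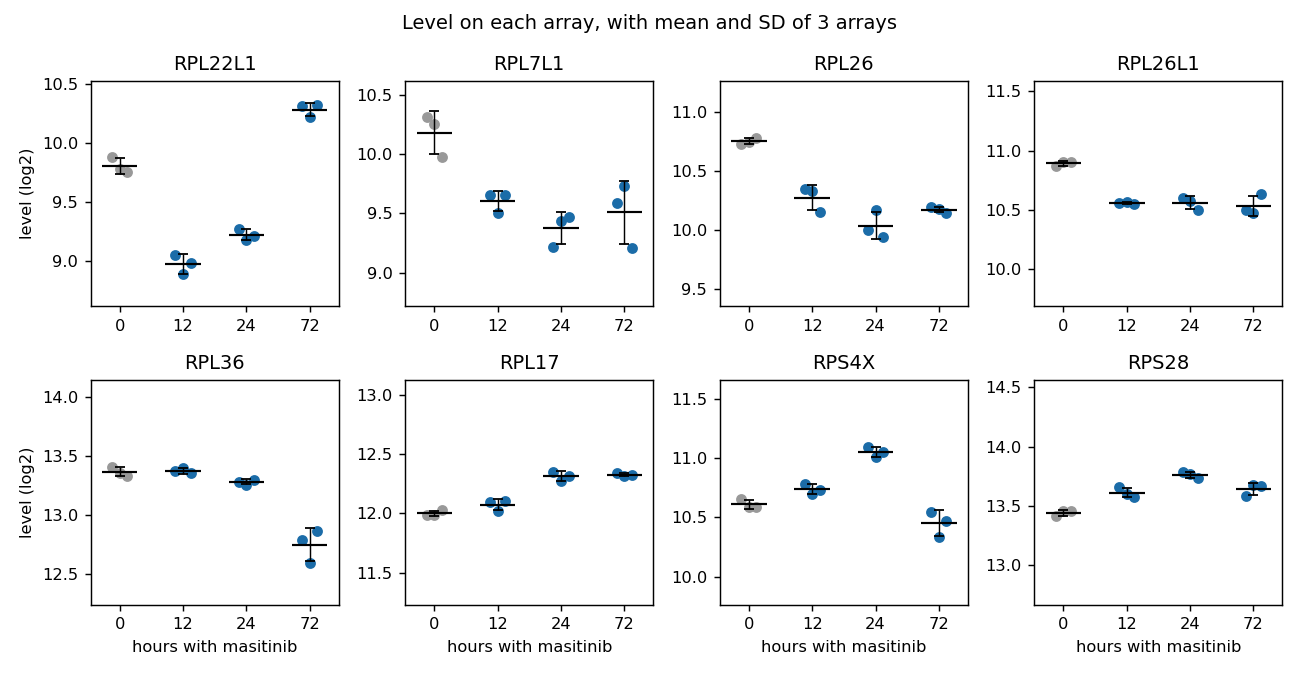
Level (log2, vertical axis) of 8 ribosomal protein genes on each array against hours with masitinib (0, 12, 24 and 72 h), with the mean and SD of 3 arrays. Grey points are untreated cultures at 0 h. RPL22L1 lay between 8.89 and 9.06 at 12 h and between 10.22 and 10.32 at 72 h, and the 3 arrays of RPL36 at 72 h lay below all its others.

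At an adjusted p under 0.05 with no fold limit, 5 genes were higher and 4 lower at 12 h, 14 higher and 4 lower at 24 h, and 5 higher and 9 lower at 72 h. Over all genes 15.4, 21.4 and 21.8% were higher and 17.4, 21.1 and 23.0% lower by that rule, and the members' shares were 8.77, 24.6 and 8.77% higher and 7.02, 7.02 and 15.8% lower. Only the share higher at 24 h was above that of all genes, by little. Of the 57 genes 32 passed at no time, 15 were higher at 1 or more times and lower at none, and 9 the reverse. RPL22L1 was the 1 gene that passed in both directions, and RPS28 the 1 gene higher at all 3 times.

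The rises were small, relative to the other transcripts, and most frequent at 24 h. All but that of RPL22L1 at 72 h were below 0 with poly-A control scaling. RPS4X, a small subunit protein encoded on the X chromosome, had 10.65, 10.59 and 10.59 at 0 h, 10.78, 10.70 and 10.73 at 12 h, 11.09, 11.00 and 11.05 at 24 h, and 10.55, 10.33 and 10.47 at 72 h. The arrays of 24 h were above all others and those of 72 h below all others. The change of RPS4X against 0 h was 0.44 at 24 h (SE 0.07, limma adjusted p = 0.000116), beside 0.13 and -0.16 at 12 and 72 h (adjusted p = 0.182 and 0.0725). At 72 h it was 1.51-fold lower than at 24 h (-0.60, adjusted p = 3.81e-05).

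RPS28, a small subunit protein close to the path of the messenger RNA, had 13.41, 13.46 and 13.46 at 0 h, 13.66, 13.60 and 13.58 at 12 h, 13.78, 13.77 and 13.73 at 24 h, and 13.59, 13.68 and 13.67 at 72 h. No treated array reached down to those of 0 h. The changes were 0.17, 0.32 and 0.20 (SE 0.05, adjusted p = 0.0332, 0.000365 and 0.00922). RPL17, a protein at the exit of the peptide tunnel, had 11.99, 11.99 and 12.03 at 0 h, 12.10, 12.02 and 12.10 at 12 h, 12.35, 12.27 and 12.32 at 24 h, and 12.34, 12.31 and 12.33 at 72 h. Its rise was thus in place at 24 h (0.31, SE 0.05, adjusted p = 0.000383) and was of similar size at 72 h (0.33, adjusted p = 0.00025), with the arrays of both times above those of 0 h.

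The stalk, to which elongation factors bind, is made of RPLP0 with RPLP1 and RPLP2, and RPL12 sits at its base. RPLP1 had 12.17, 12.28 and 12.35 at 0 h, 12.58, 12.35 and 12.45 at 12 h, 12.64, 12.58 and 12.57 at 24 h, and 12.52, 12.46 and 12.62 at 72 h, so that no treated array overlapped those of 0 h, the closest being 12.355 at 12 h against 12.348 at 0 h. It rose by 0.33 at 24 h (adjusted p = 0.00303) and by 0.27 at 72 h (adjusted p = 0.0109), and had 0.20 at 12 h (adjusted p = 0.0697). Without 0 h replicate 1 the value of 72 h was 0.22 (adjusted p = 0.0535). RPLP2 rose by 0.19 and 0.27 at 12 and 24 h (adjusted p = 0.0145 and 0.000977) and had 0.10 at 72 h (adjusted p = 0.164). RPLP0 had 0.08, 0.13 and -0.07, none of which passed. RPL12 rose by 0.20 and 0.29 at 12 and 24 h (adjusted p = 0.012 and 0.000526), had -0.07 at 72 h, and was lower at 72 h than at 24 h (-0.37, adjusted p = 0.000312).

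RPS10, RPS16 and RPS19 of the small subunit were also higher at 24 h, by 0.31, 0.25 and 0.18 (limma adjusted p = 0.00228, 0.00213 and 0.0205). The other probe set of RPS10, of nearly the same level, had 0.09 at 24 h and did not pass (adjusted p = 0.316). RPS19 is known as the gene most often mutated in Diamond-Blackfan anaemia. RPL14, RPL28, RPS21 and RPS27 completed the 14 genes, beside RPL10, with rises of 0.16 to 0.19. The rises at 12 h depended on single arrays: without 0 h replicate 1, 0 h replicate 2 or 12 h replicate 1, the 5 genes (RPL12, RPS10, RPLP2, RPS28 and RPL10) became 1. At 24 h RPL10 no longer passed without 24 h replicate 3 (0.17, adjusted p = 0.0556).

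The falls at 72 h included genes that had not passed the test before. RPL7A had 13.64, 13.68 and 13.65 at 0 h, 13.72, 13.73 and 13.70 at 12 h, 13.64, 13.62 and 13.68 at 24 h, and 13.38, 13.40 and 13.39 at 72 h. RPL4, a protein that lines the peptide tunnel, had 14.22, 14.17 and 14.17 at 0 h, 14.14, 14.16 and 14.20 at 12 h, 14.13, 14.14 and 14.16 at 24 h, and 13.98, 13.90 and 13.97 at 72 h. In both genes the arrays of 72 h were below all the others. Among the earlier times the 12 h arrays of RPL7A lay above those of 0 h and 24 h, and the 24 h arrays of RPL4 lay below those of 0 h, by small margins. RPL7A fell by 0.27 and RPL4 by 0.24 at 72 h against 0 h (limma adjusted p = 0.000812 and 0.00251). RPS13, RPS15 and RPS27A, of the small subunit, fell by 0.14 to 0.16 (adjusted p between 0.0294 and 0.0451). The adjusted p of RPS27A was 0.0501 or more in 5 of the 12 fits that left out 1 array, among them that without 72 h replicate 2 (-0.13, adjusted p = 0.102).

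The genes moved mostly together between 24 and 72 h. Against 24 h, 48 of the 57 genes were below 0 at 72 h, with a median change of -0.11 (log2), beside -0.0012 over all genes. The 3 arrays of 72 h lay below all 3 of 24 h in 42 genes (73.7%), whereas the arrays did not overlap in that direction in 18.2% of all genes. They lay above in 2 genes, RPL22L1 and RPS27L, against 16.9% of all genes. All but 1 of the 21 small subunit genes had such lower arrays at 72 h, and 22 of the 36 large subunit genes. At an adjusted p under 0.05 14 genes were lower and 1 higher (10.5% of all genes each way), and by the call rule 1 was lower (RPS4X, 1.81% of all genes) and 1 higher (RPL22L1, 1.96% of all genes). Beside RPS4X and RPL12, RPL36 fell by 0.53, RPS16 by 0.31, RPS19 by 0.29 and RPL28 by 0.27 between these times (adjusted p between 0.000147 and 0.00272).

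That joint fall after 24 h is relative to the other transcripts on the array: its median was -0.11 on the deposited values and with equal array medians, -0.05 with cyclic loess, and 0.01 with arrays scaled to the poly-A controls, where all probe sets had a median of 0.13. The count of genes whose 72 h arrays lay below those of 24 h was 38 with equal array medians, 26 with cyclic loess and 4 with poly-A control scaling, beside 17.7, 17.3 and 4.84% of all genes under the same scalings.

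Against 0 h the arrays did not overlap in 26 genes upward and 7 downward at 12 h, 33 and 11 at 24 h, and 12 and 26 at 72 h. Over all genes that share was 22.1, 28.2 and 26.3% upward and 22.9, 24.8 and 26.4% downward, and over the members 45.6, 57.9 and 21.1% upward and 12.3, 19.3 and 45.6% downward. With cyclic loess the counts at 72 h turned round, to 23 upward (40.4%) and 12 downward (21.1%), beside 24.5 and 28.2% of all genes. With poly-A control scaling 0 genes were apart upward and 35, 50 and 54 (61.4, 87.7 and 94.7%) downward at 12, 24 and 72 h. Over all genes that scaling gave 6.90, 4.66 and 7.99% upward and 49.3, 74.7 and 64.2% downward. At 24 h against 12 h no gene was called in either direction (1.41% of all genes higher and 3.10% lower), and 3 rose (RPS4X, RPL22L1 and RPL17) and 1 fell (RPL26) at an adjusted p under 0.05 (10.2 and 10.3% of all genes). The arrays of 24 h lay above those of 12 h in 17 genes (20.1% of all genes) and below in 6 (16.9% of all genes).

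How far such small shifts passed the test also followed from the fit. The residual SD of the 57 genes had a median of 0.0299, against 0.108 over all genes, and limma, which draws each gene's SD toward a common value, used a median of 0.0645. With a prior that follows the level, 17, 28 and 10 genes were higher and 5, 6 and 23 lower at 12, 24 and 72 h at an adjusted p under 0.05. That is 29.8, 49.1 and 17.5% of the members higher and 8.77, 10.5 and 40.4% lower, beside 16.4, 21.8 and 22.0% of all genes higher and 18.2, 21.6 and 23.5% lower in the same fit. With the plain analysis of variance that the study's methods name, 16, 25 and 9 were higher and 6, 7 and 23 lower, beside 14.9, 20.4 and 20.7% of all genes higher and 17.1, 20.6 and 22.4% lower. The members' shares in these 2 fits were above those of all genes upward at 12 and 24 h and downward at 72 h, and below them in the opposite directions.

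Among bright transcripts the others had larger changes. Of the 57 genes 44 had a mean level of 13 or more, and so had 155 other genes, with a median level of 14.00 in the 44 and 13.37 in the 155. The median size of the change was 0.0491, 0.0723 and 0.0750 in the 44 genes and 0.124, 0.219 and 0.212 (log2) in the 155 at 12, 24 and 72 h. By the call rule 0, 0 and 1 of the 44 passed, and 8, 21 and 22 of the 155. Of all genes 4.26, 8.01 and 8.73% were called higher and 6.30, 10.0 and 11.0% lower. The 13 genes under 13, among them RPL22L1, RPL7L1, RPL26, RPL26L1 and RPS4X, had a median size of 0.198, 0.312 and 0.270.

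**Figure D4:**
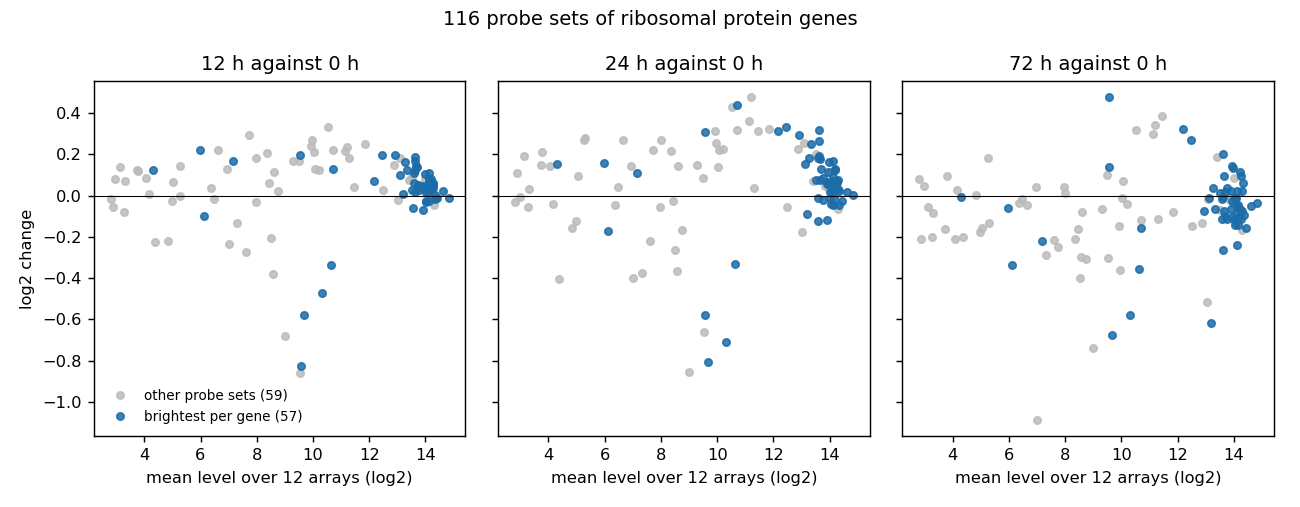
Log2 change against 0 h (vertical axis) of all 116 probe sets of the 57 genes against their mean level over 12 arrays (log2, horizontal axis), in a panel each for 12, 24 and 72 h. Blue points are the brightest probe set of each gene and grey points the other 59. The cluster of blue points at 13 or more stayed near 0, and the calls lay at lower levels, except RPL36 at 72 h.

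Of the 59 dimmer probe sets 8, 15 and 5 were higher and 5, 8 and 11 lower at 12, 24 and 72 h at an adjusted p under 0.05. These are 13.6, 25.4 and 8.47% higher and 8.47, 13.6 and 18.6% lower, beside 13.9, 19.5 and 20.4% higher and 14.6, 18.4 and 19.7% lower over all tested probe sets. Some differed from the brightest probe set of their gene. RPL10A had 0.27, 0.26 and -0.36 on a probe set with a mean level of 9.97 (adjusted p = 0.00351, 0.00344 and 0.000237), beside 0.04, 0.07 and 0.10 on its brightest. RPL13A had -0.52 at 72 h on a probe set at 13.03 (adjusted p = 2.91e-05), beside 0.02 on its brightest. In RPL34 and RPL35 different probe sets passed in opposite directions. The brightest of the 5 probe sets of RPL34 had 0.05, 0.11 and 0.14, another 0.33, 0.43 and 0.32, and one at a mean level of 7.61 had -0.27, -0.22 and -0.21, so no direction is given for this gene. RPL34 passed only at 72 h on its brightest probe set (adjusted p = 0.0398), and lost it in 8 of the 12 fits that left out 1 array. RPL17 showed its rise on a second probe set, with 0.32 at 24 h and 0.39 at 72 h, but not on its dimmest, which had 0.22 and 0.07 (adjusted p = 0.0864 and 0.609). A further 75 probe sets carry several symbols of which 1 or more is of a ribosomal protein, and of these 18, 34 and 6 (24.0, 45.3 and 8.0%) were higher and 4, 4 and 9 (5.33, 5.33 and 12.0%) lower at 12, 24 and 72 h.

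Genes that share the TOP motif were counted beside them. FAU, whose product is cut into a ubiquitin-like protein and RPS30, had changes of 0.20, 0.24 and 0.05 (adjusted p = 0.014, 0.00294 and 0.481) at 12, 24 and 72 h. Of 15 other measured genes with TOP transcripts, such as elongation factors, 4, 7 and 3 were higher and 0, 1 and 5 lower at an adjusted p under 0.05. Over all genes 15.4, 21.4 and 21.8% were higher and 17.4, 21.1 and 23.0% lower by that rule. The 15 genes had median changes of 0.10, 0.13 and 0.01, which became -0.14, -0.38 and -0.38 with poly-A control scaling. EIF4B, a helper of the initiation helicase, had 0.56, 0.84 and 0.26, and NPM1, a nucleolar chaperone also counted among these genes, -0.01, -0.92 and -1.74. RACK1, a scaffold bound to the head of the small subunit, was lower at 72 h (-0.33, adjusted p = 0.000127).

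Genes that build ribosomes, which read at lower levels on the array, had larger changes than the brightest probe sets of the ribosomal protein genes. Of 28 genes for ribosomal RNA synthesis and ribosome assembly, a list that also holds the transcription factor MYC, 19, 23 and 18 were called lower at 12, 24 and 72 h and 0 higher, with median changes of -0.89, -1.01 and -0.81. Over all genes 6.30, 10.0 and 11.0% were called lower and 4.26, 8.01 and 8.73% higher. NOP2, a nucleolar RNA methyltransferase, had -2.01, -1.72 and -1.32, and FBL, the methyltransferase of box C/D particles, -0.46, -0.97 and -1.19. MYC had -0.65, -0.19 and 0.42 (adjusted p = 9.09e-06, 0.0375 and 0.000208). Of 73 genes for proteins of the mitochondrial ribosome, which is made separately, 21, 35 and 30 were called lower and 0 higher, with median changes of -0.36, -0.57 and -0.57. These lists were counted, not tested as lists, and their medians were below 0 under every scaling tried.

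**Figure D5:**
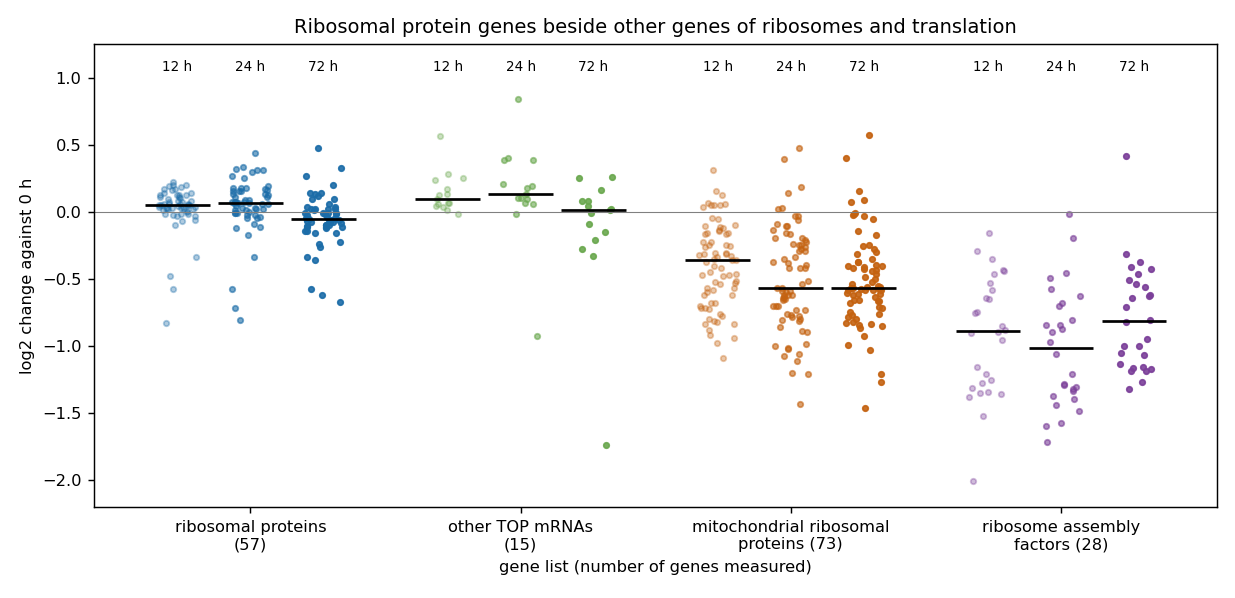
Log2 change against 0 h (vertical axis) of each gene in 4 lists at 12, 24 and 72 h with masitinib, with the median of the deposited values as a bar. The median of the ribosomal protein genes was 0.05, 0.07 and -0.05, while that of the assembly factors was -0.89, -1.01 and -0.81 and that of the mitochondrial ribosomal proteins -0.36, -0.57 and -0.57.

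Arrays of one time correlated at r = 0.99522 to 0.99794, taken across probe sets and not across independent samples, and no pair was identical. Of 13 mast cell markers 11 were measured, all above the array median, with a mean level of 11.81 to 11.90 at 0 h, 12.27 to 12.31 at 12 h, 12.57 to 12.66 at 24 h and 12.47 to 12.67 at 72 h. The lists of T cell, B cell, macrophage, epithelial, fibroblast and endothelial markers had mean levels between 4.30 and 8.34. The epithelial list was at 5.77 to 5.82 at 0 h, 6.12 to 6.36 at 12 h, 5.91 to 5.95 at 24 h and 5.17 to 5.25 at 72 h, so that its mean was above 0 h at 12 and 24 h and below it at 72 h. Its 4 genes did not move together: against 0 h, 2 were below 0 at 24 h. At 72 h 1 was above 0, at 0.63, and 3 were below, the lowest at -1.54. The T cell list was at 5.54 to 5.69 at 72 h, against 5.72 to 5.84 at 0 h, and the endothelial list at 8.18 to 8.34 at 72 h, against 7.26 to 7.47 at 0 h. Single genes weighed heavily in both: of the 4 T cell genes 3 were above 0 at 72 h against 0 h, and 1 was at -1.11. The 3 endothelial genes had a median change of 0.22, a lowest of 0.03 and a highest of 2.54. Whether these marker shifts bear on the ribosomal protein genes was not tested.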

How the data were processed

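The authors processed the scans in Partek by gcRMA, which corrects the background, applies quantile normalization and summarises probes by median polish. The submitters' notes list Partek and RMA, versions not given. What the authors deposited is on the log2 scale, with 1 value for each array and probe set. After 111 Affymetrix controls were set aside, 42924 probe sets were fitted with limma 3.58.1 in R 4.3.3 (lmFit and eBayes, 1 coefficient per time), with Benjamini-Hochberg adjustment over all of them and the thresholds of the methods (adjusted p under 0.001, more than 1.5-fold). Figures were drawn in Python 3.11.15 with matplotlib 3.10.9. Symbols came from the platform annotation, and for 54 of the 57 members the symbol is current for its Entrez identifier; in RPL34, RPL17 and RPL10, 7 probe sets have an identifier that is not listed. Of the members 30 have more than 1 probe set, at most 11, and 43 are represented by a probe set that may bind several transcripts.

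The members, gene lists and rules were chosen with earlier results of these data known. Named genes were members called at any time, the 5 that rose and the 5 that fell most at each time past an adjusted p of 0.05, paralogs and partners, stalk proteins, the highest and lowest levels, members whose probe sets disagree, and FAU, RACK1 and MYC. Any other member could be named. NOP2, FBL, EIF4B and NPM1 were chosen after their values were seen. Samples were not paired by replicate number in the main fit. On simulated data with 42924 probe sets, 82% of 100 2-fold and 100% of 100 4-fold changes at 72 h against 0 h were called, with 0 false calls. The simulation changed far fewer probe sets than passed in the data, and by more than most members changed. Its rates therefore do not give the power for the members. The number of arrays limits the precision: the SE of a member's change was 0.0493 to 0.139. Alternatives covered scaling, dim and cross-binding probe sets, the fit, the block and each array left out. Protein data were not used.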

Additional observations from a re-analysis of the deposited data

Results flagged for a closer look

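Probe sets of the ribosomal protein genes other than the brightest, which the report's comparisons do not use, passed the call rule 5 times (limma adjusted p, log2 change against 0 h). A dim probe set of RPS26 had 9.21, 9.07 and 9.09 at 12 h, against 10.00, 9.88 and 10.07 at 0 h, a change of -0.86 (adjusted p = 1.72e-06), and -0.66 at 24 h (adjusted p = 9.05e-06). The brightest probe set of RPS26 had 0.02 at both times. A probe set of RPL35 had 6.33, 6.26 and 6.47 at 72 h, against 7.43, 7.46 and 7.43 at 0 h, a change of -1.09 (adjusted p = 1.07e-07), while the brightest had -0.10. Which transcripts these dim probe sets bind was not tested. The other probe set of RPL7L1 gave -0.86 at 24 h (adjusted p = 0.000198) and -0.74 at 72 h (adjusted p = 0.000621), and on both probe sets 0 h replicate 3 was the lowest of its time, as were 24 h replicate 1 and 72 h replicate 3.

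The change against 0 h differed between 24 h and 72 h, by a test of the difference itself, in RPL22L1, by 1.06 (adjusted p = 4.3e-07), and in RPS4X, by -0.60 (adjusted p = 3.81e-05).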

How the results depend on the processing

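The medians at 12, 24 and 72 h were 0.0151, 0.0356 and -0.0830 with equal array medians, -0.19, -0.45 and -0.45 with poly-A control scaling, and -0.24, -0.54 and -0.52 without the trp controls, a choice made after seeing the data. Cyclic loess gave 0.0150 at 72 h. With probe sets not ending in x_at or s_at (34 genes) they were 0.0200 at 12 h and -0.14 at 72 h. Calls (1, 2 and 2) became 3, 8 and 8 with poly-A scaling, 4, 19 and 15 without trp, and 0 at each time at more than 2-fold. Poly-A scaling moved the median of all probe sets to -0.23, -0.48 and -0.36. Shares of all genes called were not counted under these settings, so the counts are not read as a result about the members. They became 1 at 24 h and 1 at 72 h with the analysis of variance. At 72 h they became 0 with cyclic loess and 1 with only the arrays of the times compared. At 12 h they became 0 with probe sets not ending in x_at or s_at. RPL22L1, the gene called at 12 h, has only an s_at probe set, so that setting left it out and did not measure it again. Calls at 72 h against 24 h (2) became 1 with cyclic loess and both poly-A scalings. Genes past 0.05 (9, 18 and 14) became 14 at 12 h without the dimmest 40% of probe sets, 14 and 22 at 12 and 72 h with the mean of a gene's probe sets, 22, 32 and 32 with the analysis of variance, 22, 34 and 33 with an intensity trend, 50 and 50 at 24 and 72 h with poly-A scaling, and 55 and 53 without trp. Apart from the analysis of variance and the intensity trend, shares of all genes past 0.05 under these settings were not counted either. Leaving out 1 array gave 1 to 1, 1 to 3 and 1 to 2 calls, 5 to 9, 14 to 18 and 10 to 14 genes past 0.05, and medians of 0.0369 to 0.0571, 0.0658 to 0.0742 and -0.0605 to -0.0424. Among single genes poly-A scaling turned RPL12 (-0.0418 and -0.22 at 12 and 24 h), RPS10 (-0.0441 and -0.20), RPLP2 (-0.0519 and -0.25), RPL10 (-0.0775 and -0.33), RPS28 (-0.0699, -0.19 and -0.19 at 12, 24 and 72 h), RPS4X (-0.0747 at 24 h), RPLP1 (-0.18 and -0.12 at 24 and 72 h), RPL17 (-0.20 and -0.0671) and RPL34 (-0.25 at 72 h). RPL12 at 12 h was -0.0561 on its probe set not ending in x_at or s_at (limma adjusted p = 0.723). That probe set has a mean level of 2.88, among the dimmest on the array, so its sign says little about RPL12. The cause was not tested, beyond the shift that poly-A scaling adds by construction.

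Same-numbered arrays did not pair: 5 of 18 pairs had deviations correlated above 0.1 (range -0.329 to 0.411), and 4 of 12 arrays correlated best with their own number. With the replicate block 1 gene, RPL36, was called at 72 h.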
